A study of Thermothelomyces thermophilus with 49 samples.

Results

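The comparison is between the transcriptomes of the Δclr1 strain and the Δclr4 strain of *Thermothelomyces thermophilus* 1 h after cellulose was spiked into the culture (time point t2). It takes in 4 of the 48 libraries of the series: Δclr1 R1 and R2, and Δclr4 R1 and R2, each from a bioreactor culture of its own. The Δclr1 strain is BS7.8 (Δku80, Δclr1) and the Δclr4 strain is JK2.8 (Δku80, Δclr4). Both derive from MJK20.3 (Δku80), so that all libraries, including those of the parental strain and of the Δclr2 strain BS6.4 (Δku80, Δclr2), lack the *ku80* gene for non-homologous end joining, and each deletion is represented by a single isolate. Cultures were grown in a glucose-limited chemostat until the steady state (SS). Part of the broth was then replaced with cellulose and medium without glucose, and the culture went on as a batch. The glucose feed thus ended when cellulose was given, so changes after cellulose cannot be told apart from changes after the loss of glucose. The study reports that the Δclr1 strain then stopped growing, while the Δclr4 strain grew on cellulose. Mycelium was harvested 4 times afterwards, with t1 at 0.5 h, t2 at 1 h, t3 at 2 h and t4 at 4 h. The RNA is from whole mycelium, so a smaller share of cells that make a transcript and less transcript per cell cannot be told apart.

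Clr1 and Clr2 are zinc cluster transcription factors that switch on cellulase genes in *Neurospora crassa* and other filamentous fungi, where Clr1 responds to cellobiose released from cellulose and raises the expression of *clr2*. Clr4 is a further fungal transcription factor implicated in cellulase expression. Cellulose is broken down by endoglucanases, which cut within the chain, cellobiohydrolases, which release cellobiose from its ends, lytic polysaccharide monooxygenases (LPMOs), which cut crystalline chains by oxidation, and ß-glucosidases, which split cellobiose into glucose. The direct comparison of the Δclr1 and Δclr4 strains sets the transcriptome without Clr1 against the transcriptome without Clr4 at the same time and with the same sequencing centre, without passing through the parental strain.

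The Δclr1 libraries held 6128696 and 8853449 counts and the Δclr4 libraries 16718849 and 8666729 counts, within a range of 2567179 to 22212257 over the series. Levels are given as CPM, which are counts scaled to a fixed library total, after TMM normalization, a scaling that sets most genes equal between libraries. The TMM factors were 1.139 and 1.076 in the Δclr1 libraries, against 0.876 and 0.860 in the Δclr4 libraries. Pearson's r of log2 CPM between replicates across genes, which are not independent, was 0.970 in Δclr1 and 0.983 in Δclr4. The SD of the log2 difference between replicates was 0.622 in Δclr1 and 0.452 in Δclr4, so the Δclr1 pair was the less alike.

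The deleted genes followed the labels. *clr1* (MYCTH_2298863, chromosome 1, 8699924 to 8702395, ASM22609v1) had 5 and 11 counts in the Δclr1 libraries, against 5620 and 2716 counts in the Δclr4 libraries. Over all 12 libraries of each strain it ranged over 0 to 20 counts in Δclr1 and 361 to 9484 counts in Δclr4. *clr4* (MYCTH_2296492, chromosome 1, 4434273 to 4437501) had 1523 and 2574 counts in the Δclr1 libraries, against 1 and 0 counts in the Δclr4 libraries. The strains did not overlap in either gene. The ratio of *clr4* in Δclr1 over Δclr4, from summed counts scaled by library size, was 5480 (95% interval 984 to 217000, which like all such intervals here covers counting error only). Over the 12 libraries of each strain *clr4* held 1364 to 3165 counts in Δclr1 and 0 to 2 counts in Δclr4.

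The neighbours of the deleted genes moved to unequal degrees. MYCTH_2298860, next to *clr1*, had 162 and 136 CPM in Δclr1, against 18402 and 16860 CPM in Δclr4 (log2 fold change -6.89 ± 0.29, SE). It was also among the 5 genes with the highest mean CPM in Δclr4. MYCTH_2298867, on the other side of *clr1*, had 31.5 and 43.5 CPM in Δclr1, against 63.9 and 83.4 CPM in Δclr4 (-0.96), and this call was lost with library totals as the scaling (-0.62), without Δclr1 R1 (-0.75) and without Δclr4 R2 (-0.77). Beside *clr4*, the α-amylase gene MYCTH_77082 had 50.3 and 38.1 CPM in Δclr1, against 87.3 and 78.9 CPM in Δclr4 (-0.92). It also differed at SS (-1.18), before cellulose, and the t2 call was lost without Δclr1 R2 (-0.73, edgeR adjusted p = 0.0539). MYCTH_2313703, the other neighbour, had 111 and 130 CPM in Δclr1, against 112 and 101 CPM in Δclr4 and did not pass the test (log2 fold change 0.19, edgeR adjusted p = 0.42).

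Of 8565 genes tested, 3027 (35.3%) differed between the strains at an adjusted p under 0.05 in edgeR's quasi-likelihood test, 1452 (17.0%) higher and 1575 (18.4%) lower in Δclr1. Of these 3027 genes, 3000 had CPM values that did not overlap between the strains, where 28.9% of all tested genes were higher and 30.5% lower without overlap. The balance of directions rested on the scaling: with library totals in place of TMM the median log2 fold change of all genes moved to 0.33, against -0.02, and 78.05% of the calls were higher in Δclr1, against 47.97% with TMM. Small changes on the log2 scale are therefore relative to the TMM scaling. The large changes leaned one way. At least 2-fold differences were called in 670 genes (7.82%) higher and 819 (9.56%) lower in Δclr1, and at least 16-fold differences in 25 genes (0.292%) higher and 132 genes (1.54%) lower.

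**Figure D1:**
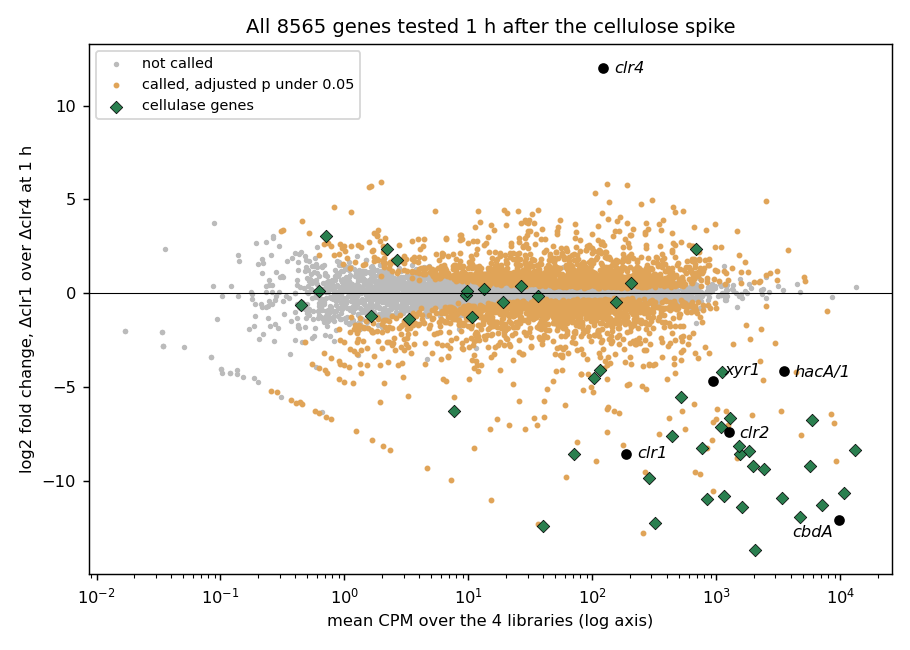
Log2 fold change of Δclr1 over Δclr4 at t2 (y axis) against mean CPM over the 4 libraries (x axis, log scale) for the 8565 genes tested, with called genes coloured, cellulase genes as diamonds and named genes labelled. The 132 genes at least 16-fold lower in Δclr1 reach further from 0 than the 25 genes at least 16-fold higher, apart from the deleted *clr4*, whose fitted value rests on 1 count in Δclr4, and most cellulase genes sit at the bottom.

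Among the 132 genes at least 16-fold lower in Δclr1, 61 were genes of carbohydrate-active enzymes (CAZYs), 29 of them cellulases. A further 5 were transcription factors or regulators (the deleted *clr1* among them), 7 stood only in Gene Ontology (GO) lists and 59 were in none of the lists used. Among the 25 genes at least 16-fold higher, 0 were CAZYs, 1 was a transcription factor (*clr4* itself), 4 stood only in GO lists and 20 were in no list. In 97 of the genes called lower, both Δclr1 libraries held no more counts than the deleted *clr1* gene did in the same library, and 49 of these were at least 16-fold lower.

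Of the CAZY classes, the cellulases had the widest gap, where 18.4% of all genes were lower and 17.0% higher in Δclr1. Of the 46 cellulase genes tested (of 49 listed), 32 were lower and 4 higher in Δclr1, with a median log2 fold change of -6.70, beside -0.02 over all genes. Their summed counts made up 0.238% ± 0.0055 of all counts in Δclr1, against 12.5% ± 0.394 in Δclr4 (SD, n = 2 each). At SS the shares were 0.555% in Δclr1 and 0.448% ± 0.152 in Δclr4. There edgeR called 0 of the 46 cellulase genes (3 at an unadjusted p under 0.05, 0 by DESeq2). Of all 8565 genes only 33 (0.385%) were called at SS, and 868 had an unadjusted p under 0.05. The 0 of 46 therefore does not set the cellulases apart from other genes. Over all alternatives, 29 to 33 cellulase genes were called lower in Δclr1 at t2.

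All 6 cellobiohydrolase genes tested were lower in Δclr1 (median -8.23). MYCTH_2303045 (family GH6, chromosome 2, 5389544 to 5391132) had 11.7 and 14.7 CPM in Δclr1, against 23031 and 19626 CPM in Δclr4 (log2 fold change -10.65 ± 0.47, adjusted p = 9.1e-19). MYCTH_66729, a GH6 enzyme with a CBM1 cellulose-binding module, had 6.73 and 5.04 CPM in Δclr1, against 14427 and 14197 CPM in Δclr4 (-11.26 ± 0.46). In both genes the libraries of a strain lay close together and the strains did not overlap. MYCTH_109566 (GH7 with CBM1, chromosome 1, 9753507 to 9755507), the gene with the highest mean CPM in Δclr4, had 88.8 and 72.5 CPM in Δclr1, against 26500 and 25557 CPM in Δclr4 (-8.34 ± 0.44). The cellobiohydrolases together took 0.0144% of counts in Δclr1 and 5.64% in Δclr4.

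Of 9 endoglucanase genes tested, 7 were lower and 0 higher in Δclr1 (median -6.25). MYCTH_86753 (GH5 with CBM1) had 21.3 and 18.1 CPM in Δclr1, against 12843 and 10077 CPM in Δclr4 (-9.19 ± 0.31). MYCTH_76901 (GH45) had 15.2 and 7.03 CPM in Δclr1, against 3591 and 3796 CPM in Δclr4 (-8.40). After cellulose, MYCTH_86753 fell by 0.65 in Δclr1 and rose by 7.99 in Δclr4 on the log2 scale, and MYCTH_76901 fell by 1.26 in Δclr1 and rose by 7.45 in Δclr4. MYCTH_111372 had 0.573 and 0.630 CPM in Δclr1, against 498 and 653 CPM in Δclr4 (-9.86).

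The ß-glucosidases were divided. Of 9 genes tested, 5 were lower and 2 higher, with a median of -0.48. MYCTH_62925 (GH3, chromosome 1, 3330354 to 3333832) had 3.44 and 3.78 CPM in Δclr1, against 6551 and 7107 CPM in Δclr4 (-10.87 ± 0.46), and MYCTH_58882 was lower in the same way, with 0.430 and 1.15 CPM in Δclr1, against 1743 and 1633 CPM in Δclr4 (-10.94). The GH1 gene MYCTH_115968 had a higher level in Δclr1 than either of these genes, with 93.4 and 126 CPM in Δclr1, against 12292 and 11151 CPM in Δclr4 (-6.74). MYCTH_80304 went the other way. It had 1176 and 1115 CPM in Δclr1, against 176 and 263 CPM in Δclr4 (log2 fold change 2.38 ± 0.25, adjusted p = 1.7e-09), without overlap. Its SS levels were 4326 and 4501 CPM in Δclr1, against 2315 and 4222 CPM in Δclr4, so the gene fell after cellulose in both strains, by 1.95 on the log2 scale in Δclr1 and by 3.90 in Δclr4. The other higher ß-glucosidase gene, MYCTH_2129052, which like both higher LPMO genes was named after its values were seen, had 8 and 13 counts in Δclr1, against 1 and 2 counts in Δclr4.

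The gene with the lowest log2 fold change among the cellulases was an LPMO. Of 22 LPMO genes tested, 14 were lower and 2 higher in Δclr1 (median -7.35), and they took 0.0109% of counts in Δclr1, against 2.91% in Δclr4. MYCTH_110651 (AA9 with CBM1, chromosome 1, 5810866 to 5812738) had 3 and 2 counts in Δclr1, against 53940 and 34330 counts in Δclr4 (log2 fold change -13.67 ± 0.55, adjusted p = 6.7e-19). MYCTH_80312 had 3.15 and 1.89 CPM in Δclr1, against 8956 and 9931 CPM in Δclr4 (-11.90). MYCTH_85556 had 0 and 2 counts in Δclr1, against 5889 and 6590 counts in Δclr4, which was 4660-fold lower (95% interval 1290 to 38500), and MYCTH_92668, with 0 counts in both Δclr1 libraries and 49.3 and 111 CPM in Δclr4, was at least 386-fold lower, taking 3 counts in both libraries together as the lowest level that could be seen. The 2 higher LPMO genes were weakly expressed, MYCTH_55803 with 25 and 36 counts in Δclr1, against 8 and 7 counts in Δclr4, and MYCTH_47093 with 36 and 29 counts in Δclr1, against 17 and 9 counts in Δclr4.

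Cellobiose dehydrogenase passes electrons from cellobiose to LPMOs. The gene *cbdA* (MYCTH_111388, AA8, AA3 and CBM1, chromosome 3, 3744679 to 3747869) had 5.44 and 3.67 CPM in Δclr1, against 18693 and 20594 CPM in Δclr4 (log2 fold change -12.09 ± 0.58, adjusted p = 1.5e-17). MYCTH_81925, a further gene annotated as a cellobiose dehydrogenase (AA8 and AA3), had 28.4 and 48 CPM in Δclr1, against 15245 and 21460 CPM in Δclr4 (-8.90). Sorted by module and not by enzyme activity, all 17 CAZY genes with a CBM1 module that were tested were lower in Δclr1 (median -9.19). They made up 0.0168% ± 0.0015 of counts in Δclr1 and 8.79% ± 0.0453 in Δclr4 (SD, n = 2 each). Their median response to cellulose was 0.18 in Δclr1 and 9.93 in Δclr4 on the log2 scale.

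**Figure D2:**
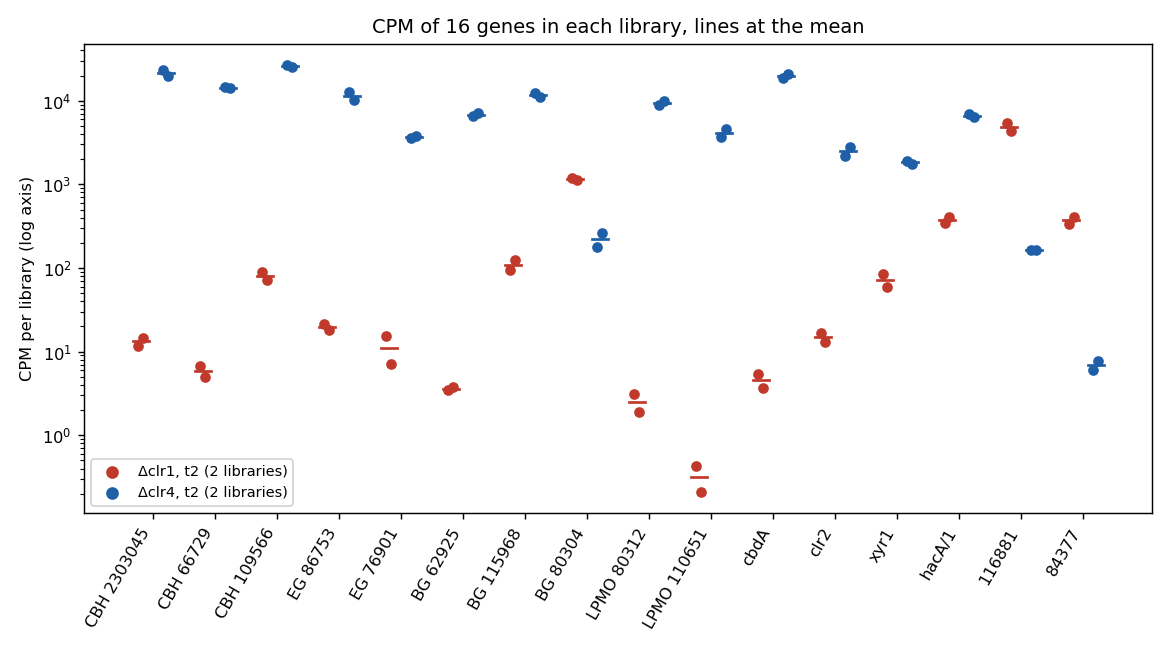
CPM (y axis, log scale) of 16 named genes in each of the 2 Δclr1 and 2 Δclr4 libraries at t2, 1 point per library and lines at the means. The strains do not overlap in any of these genes: 13 genes, from cellobiohydrolases to HacA/1, sit lower in Δclr1, and the ß-glucosidase MYCTH_80304, MYCTH_116881 and MYCTH_84377 sit higher in Δclr1.

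Hemicellulase genes were divided, where 18.4% of all genes were lower and 17.0% higher in Δclr1. Of 62 tested, 33 were lower and 6 higher in Δclr1 (median -0.90), and their share of counts was 0.403% ± 0.0317 in Δclr1 and 1.76% ± 0.177 in Δclr4 (SD, n = 2 each). Xylanase genes, whose products cut the xylan backbone, were lower in 7 of 9 cases (median -3.44). The GH11 xylanase gene MYCTH_100068 had 1.29 and 1.26 CPM in Δclr1, against 1798 and 1998 CPM in Δclr4 (-10.53). The GH11 gene MYCTH_89603 had 74.9 and 98.4 CPM in Δclr1, against 5385 and 7806 CPM in Δclr4 (-6.25). Mannanase genes gave 3 lower and 2 higher of 10 (median -0.31), with MYCTH_84297 at 2.15 and 1.57 CPM in Δclr1, against 1660 and 1054 CPM in Δclr4 (-9.53). Of 11 exoarabinase genes 3 were lower and 0 higher (median -0.39).

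Other glycosidase genes listed among the hemicellulases went in both directions. The α-mannosidase gene MYCTH_2139585 had 359 and 374 CPM in Δclr1, against 38.8 and 48.2 CPM in Δclr4 (log2 fold change 3.08). It rose by 0.79 in Δclr1 and fell by 2.35 in Δclr4 on the log2 scale after cellulose. Among the ß-galactosidase genes, MYCTH_114497 had 385 and 567 CPM in Δclr1, against 45.5 and 61.5 CPM in Δclr4 (3.16), and MYCTH_40111 had 179 and 130 CPM in Δclr1, against 862 and 944 CPM in Δclr4 (-2.55). Neither gene overlapped between the strains. One lower call rested on a single library: the mixed-linked glucanase gene MYCTH_78568 had 13 and 13 counts in Δclr1, against 557 and 40 counts in Δclr4, and its log2 fold change of -3.81 became -1.75 (edgeR adjusted p = 0.219) without Δclr4 R1.

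Most genes for the breakdown of pectin and of ester groups were lower in Δclr1 as well. Of 11 pectinase genes, 8 were lower and 1 higher in Δclr1 (median -3.84), where 18.4% of all genes were lower and 17.0% higher. The pectate lyase gene MYCTH_102322 (PL3) had 1.00 and 1.99 CPM in Δclr1, against 256 and 268 CPM in Δclr4 (-7.38), and MYCTH_55717 (GH28, the polygalacturonase family) had 1.43 and 1.26 CPM in Δclr1, against 22.0 and 20.0 CPM in Δclr4 (-3.96). The single pectinase gene higher in Δclr1 was the rhamnosidase MYCTH_2299923 (0.55), whose call was lost under several alternatives, among them without Δclr1 R1 and without Δclr4 R1 (0.37). Of 14 esterase genes, 9 were lower and 2 higher (median -2.66). The acetylxylan esterase gene MYCTH_84133 had 4.44 and 6.4 CPM in Δclr1, against 1745 and 1598 CPM in Δclr4 (-8.24), while the acetyl esterase gene MYCTH_105128 (CE3) had 41.0 and 84.5 CPM in Δclr1, against 6.07 and 8.05 CPM in Δclr4 (3.18).

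Starch and fungal cell wall genes had more members higher than lower in Δclr1, where 17.0% of all genes were higher and 18.4% lower. The lower counts of both classes were near that share. Of 12 genes of starch metabolism, 4 were higher and 2 lower in Δclr1 (median 0.20, and 7 higher and 1 lower with library totals). The glucoamylase gene MYCTH_2296256, for an enzyme that frees glucose from starch, had 502 and 496 CPM in Δclr1, against 172 and 159 CPM in Δclr4 (log2 fold change 1.59). It rose by 1.63 on the log2 scale after cellulose in Δclr1, with a value of -0.01 in Δclr4. The other of the 2 glucoamylase genes fell in both strains. The median response of both genes was -1.42 in Δclr1 and -2.78 in Δclr4. Of the 12 starch genes, 6 rose and 4 fell in Δclr1, and 3 rose and 4 fell in Δclr4. Their summed share of counts fell from 0.366% at SS to 0.271% at t2 in Δclr1. In Δclr4 this share fell from 0.531% ± 0.119 to 0.151% ± 0.00194 (SD, n = 2 each). Genes of fungal cell wall remodelling were higher in 11 and lower in 5 of 33 cases (median 0.15, and 16 higher and 4 lower with library totals). Among the higher genes of this class was the diacetylmuramidase gene MYCTH_107866, with 1001 and 1415 CPM in Δclr1, against 85.5 and 121 CPM in Δclr4 (3.55). Chitinase genes also appeared among the lower ones, but the values of MYCTH_113450 in Δclr4 were far apart, with 10.5 and 6.19 CPM in Δclr1, against 1404 and 251 CPM in Δclr4 (-6.66, and -4.94 without Δclr4 R1).

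Glycosyltransferases, which build sugar chains, were lower in 26 and higher in 10 of 82 cases (median -0.16). The shares over all genes were 18.4% lower and 17.0% higher. MYCTH_2309843 (GT35, the glycogen phosphorylase family) had 522 and 660 CPM in Δclr1, against 108 and 166 CPM in Δclr4 (2.11). MYCTH_2310881 (GT39, the family of protein O-mannosyltransferases) had 157 and 127 CPM in Δclr1, against 832 and 739 CPM in Δclr4 (-2.47). Over all 373 CAZY genes tested, 161 were lower and 58 higher in Δclr1 with TMM (median -0.44), and 136 were lower and 102 higher with library totals.

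**Figure D3:**
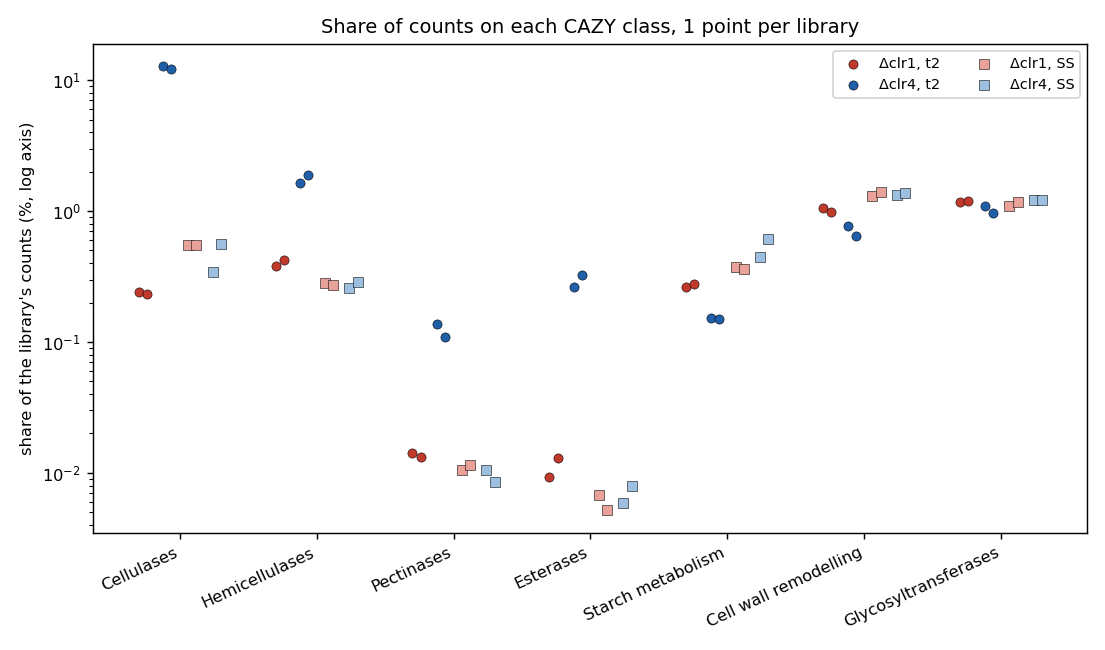
Share of all counts (percent, log axis) taken by 7 CAZY classes in Δclr1 t2, Δclr4 t2, Δclr1 SS and Δclr4 SS, 1 point per library. At t2 cellulases take 0.238% in Δclr1 and 12.5% in Δclr4, and at SS they take 0.555% in Δclr1 and 0.448% in Δclr4.

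The genes for the uptake of sugars and for secretion were compared next, by GO lists that the study chose on these same samples, so that their direction is not independent evidence. All 6 genes listed for carbohydrate transport on account of their rise in Δclr4 were lower in Δclr1 (median -4.59). The share of all genes lower was 18.4%. MYCTH_114107 had 198 and 190 CPM in Δclr1, against 16302 and 16769 CPM in Δclr4 (-6.41 ± 0.44). It rose in both strains after cellulose, by 3.16 in Δclr1 and by 8.46 in Δclr4 on the log2 scale. MYCTH_84164 had 23.2 and 80.6 CPM in Δclr1, against 8355 and 11022 CPM in Δclr4 (-7.53), and it fell in Δclr1 by 2.57 after cellulose and rose by 5.83 in Δclr4. Genes of other transport lists were higher: MYCTH_2307233 had 651 and 734 CPM in Δclr1, against 33.8 and 60.5 CPM in Δclr4 (3.89), and MYCTH_2305399 had 478 and 530 CPM in Δclr1, against 36.3 and 38.8 CPM in Δclr4 (3.75), although MYCTH_2305399 was already higher at SS (1.16).

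Genes of protein folding and quality control in the endoplasmic reticulum were mostly lower in Δclr1, again by lists that the study chose on these samples. Lower calls made up 18.4% of all genes. All 3 genes listed for protein disulfide isomerase activity, which forms disulfide bonds in secreted proteins, were lower in Δclr1 (median -2.63), as were 3 of 4 genes listed for endoplasmic reticulum associated degradation (median -1.88). MYCTH_2296005 had 459 and 471 CPM in Δclr1, against 8872 and 7796 CPM in Δclr4 (-4.16 ± 0.18). Its level fell by 1.19 in Δclr1 and rose by 3.11 in Δclr4 on the log2 scale after cellulose. MYCTH_2315513, of the degradation list, had 207 and 171 CPM in Δclr1, against 5261 and 3936 CPM in Δclr4 (-4.61), with a fall by 2.06 in Δclr1 and a rise by 2.52 in Δclr4.

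Regulators were read from the study's list of orthologs, beside shares over all genes of 18.4% lower and 17.0% higher in Δclr1. Of 47 orthologs of known regulators of carbohydrate metabolism tested, 19 were lower and 6 higher in Δclr1 (median -0.25). The lower genes include the deleted *clr1* and the higher genes the deleted *clr4*, whose directions were fixed by the deletions. With library totals the counts became 16 lower and 15 higher (median 0.10), so the balance of the smaller differences depended on the scaling. *clr2* (MYCTH_38704, chromosome 1, 8537416 to 8539985), the downstream partner of *clr1* in cellulase induction in *N. crassa*, had 16.9 and 13.0 CPM in Δclr1, against 2166 and 2833 CPM in Δclr4 (log2 fold change -7.39 ± 0.40, adjusted p = 1.1e-13). At SS its log2 fold change was 0.05 (adjusted p = 0.97), and its response to cellulose was -0.03 in Δclr1 and 7.41 in Δclr4.

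Xyr1 (MYCTH_2310145), the activator of xylanase genes, had 85.5 and 59.3 CPM in Δclr1, against 1884 and 1766 CPM in Δclr4 (-4.66 ± 0.35). HacA/1 (MYCTH_2310995), the transcription factor of the unfolded protein response, had 349 and 403 CPM in Δclr1, against 6862 and 6393 CPM in Δclr4 (-4.14 ± 0.19), and the gene of Ire1, the sensor that activates it, was lower by a smaller step (-1.14). In Δclr1 the HacA/1 gene fell by 0.84 after cellulose and in Δclr4 it rose by 3.50. GaaR/Pdr2 (MYCTH_46266), an activator of pectinase genes in *Aspergillus niger* and *N. crassa*, had 227 and 266 CPM in Δclr1, against 1085 and 1027 CPM in Δclr4 (-2.10). This gene rose in both strains, by 0.93 in Δclr1 and by 3.13 in Δclr4. GaaX (MYCTH_46981), the repressor that acts on GaaR in *A. niger*, was lower too, with 105 and 136 CPM in Δclr1, against 352 and 280 CPM in Δclr4 (-1.39).

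Smaller steps below 0 were found for Vib1 (-1.92), a regulator of cellulase production and heterokaryon incompatibility in *N. crassa*, for ClrC (-1.91), for VelB (-1.16) and VeA/Vel1 (-1.15) of the velvet complex of development, and for the nitrogen regulator AreA (-0.98). Cre1 (MYCTH_2310085), the repressor of alternative carbon use in the presence of glucose, had 205 and 303 CPM in Δclr1, against 473 and 465 CPM in Δclr4 (-0.88). The lower calls of Res1 (-0.92), McmA/1 (-0.59) and Crz1 (-0.57) were lost with library totals (-0.57, -0.24 and -0.22). On the higher side stood *clr4* itself and 5 further genes. The largest step among these was in Wc2/Blr2 (MYCTH_2294022), a part of the light response in *N. crassa*, with 262 and 335 CPM in Δclr1, against 86.8 and 94.2 CPM in Δclr4 (1.72), followed by Rce1 (MYCTH_2298696), a repressor of cellulase genes in *Trichoderma reesei*, with 319 and 369 CPM in Δclr1, against 122 and 169 CPM in Δclr4 (1.25). Hcr1 (0.61) was also higher. MalR (0.53) lost its call without Δclr1 R1 (0.47) or without Δclr4 R2 (0.48), and ClbR (0.51) lost it without Δclr1 R2 (0.15) or without Δclr4 R1 (0.34).

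**Figure D4:**
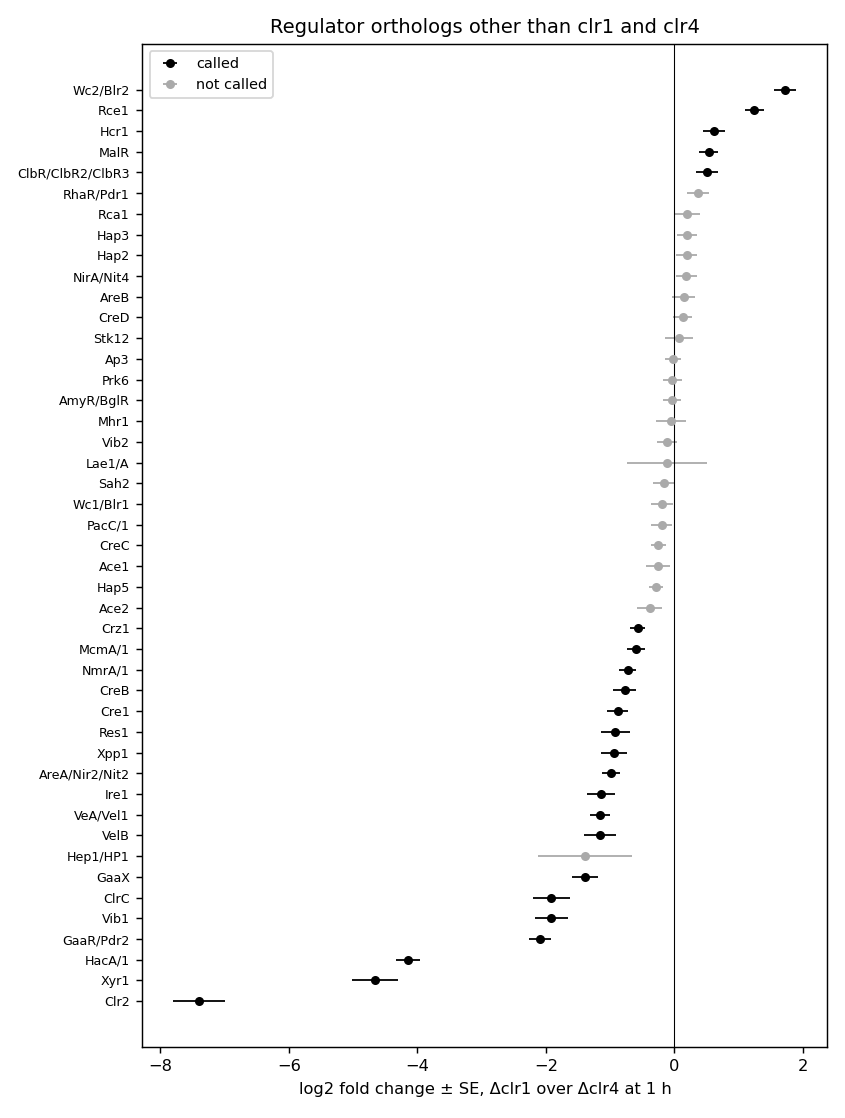
Log2 fold change of Δclr1 over Δclr4 at t2 with SE (x axis) for 45 regulator orthologs other than *clr1* and *clr4*, with called genes in black and the others in grey. *clr2* (-7.39), Xyr1 (-4.66) and HacA/1 (-4.14) stand apart from the others, and Wc2/Blr2 (1.72) is the highest.

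Among 304 predicted transcription factors tested, 75 were lower and 38 higher in Δclr1 (median -0.11), where 35.3% of all genes were called in either direction, and with library totals 48 were lower and 108 higher. The balance of directions in this class therefore turned with the scaling. Of 97 factors with a Zn2Cys6 domain, the class of Clr1 and Clr2, 27 were lower and 15 higher. MYCTH_63778 (Sp3) had 47.3 and 40.8 CPM in Δclr1, against 578 and 618 CPM in Δclr4 (-3.76), and MYCTH_2308084, annotated by the study as of the sterigmatocystin type, had 7.16 and 8.19 CPM in Δclr1, against 178 and 129 CPM in Δclr4 (-4.32). Higher in Δclr1 were MYCTH_2313746 (Nrg1), with 176 and 209 CPM in Δclr1, against 44.2 and 35.7 CPM in Δclr4 (2.26), and the cutinase-type factor MYCTH_2300935, with 1109 and 885 CPM in Δclr1, against 290 and 390 CPM in Δclr4 (1.55). The factor of cross pathway control MYCTH_2315566, which governs amino acid synthesis in *N. crassa*, had 179 and 221 CPM in Δclr1, against 587 and 557 CPM in Δclr4 (-1.52).

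Of the genes furthest higher in Δclr1, most stood in none of the lists, and their products are not annotated in the sources used here. MYCTH_2303249 (chromosome 3, 442053 to 444077), listed for heme binding, had 322 and 196 CPM in Δclr1, against 4.98 and 4.03 CPM in Δclr4 (log2 fold change 5.82 ± 0.51). Its neighbour MYCTH_2303251 (chromosome 3, 444709 to 446643), listed for pyridoxal phosphate binding, had 256 and 152 CPM in Δclr1, against 6.35 and 3.22 CPM in Δclr4 (5.35). MYCTH_84377 had 339 and 406 CPM in Δclr1, against 6.01 and 7.65 CPM in Δclr4 (5.79), without overlap like both genes before it. MYCTH_116881, listed for transmembrane transport, stood out by its level, with 5395 and 4388 CPM in Δclr1, against 164 and 165 CPM in Δclr4 (4.89 ± 0.40). It rose by 3.63 on the log2 scale in Δclr1 after cellulose and had a response of -0.60 in Δclr4, which did not pass the test. In MYCTH_2296904 the Δclr1 libraries were the ones far apart, with 828 and 336 CPM in Δclr1, against 14.7 and 23.8 CPM in Δclr4 (4.94).

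The GO lists that the study drew from genes up in Δclr1 after cellulose were again chosen on these samples. An excess of higher members is therefore not independent evidence. For all genes the shares were 17.0% higher and 18.4% lower in Δclr1. Of 14 genes for pyridoxal phosphate binding, the cofactor of transaminases and other amino acid enzymes, 12 were higher and 0 lower in Δclr1 (median 0.83). Of 20 for heme binding, a group that takes in cytochrome P450 enzymes, 12 were higher and 1 lower (median 0.91), and of 27 for transmembrane transport 14 were higher and 4 lower (median 0.58). Catalases break down hydrogen peroxide, and of 3 genes listed for them MYCTH_2299739 had 159 and 182 CPM in Δclr1, against 28.5 and 44.7 CPM in Δclr4 (2.23), whereas the call of MYCTH_2303088 (0.62) was lost whenever a library was left out. The list for autophagy held 1 higher and 1 lower gene of 5 (median -0.16) and that for late nucleophagy 1 higher and 0 lower of 4, where 35.3% of all genes were called.

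The lists for ribosomes and biosynthesis were chosen by the study from genes that fell in Δclr1 on these samples. Their fall in Δclr1 was fixed by that choice, and lower values in Δclr1 at t2 are not independent evidence either. The shares of all genes given here are therefore no test of these lists. All 8 genes of the cytosolic large ribosomal subunit and all 7 of the small subunit fell after cellulose in both strains, where 29.6% of all genes fell in Δclr1 and 25.8% in Δclr4. The median response of the large subunit genes was -2.72 in Δclr1 and -2.45 in Δclr4 on the log2 scale, and that of the small subunit genes was -3.01 in Δclr1 and -2.55 in Δclr4. Between the strains at t2, edgeR called 0 of the 8 and 0 of the 7 genes (1 and 0 at an unadjusted p under 0.05, 0 and 0 by DESeq2). Their medians were -0.15 and -0.18, and 35.3% of all genes were called. Of 15 genes of the mitochondrial small ribosomal subunit 5 were lower (median -0.38), of 8 genes of amino acid biosynthesis 5 were lower (median -0.51), and of 4 genes for acetyl-CoA synthesis from pyruvate 3 were lower (median -0.91), where 18.4% of all genes were lower. The shift of the median gene between scalings is close in size to the first of these medians.

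The difference at t2 was then set against SS, to separate what was there before cellulose from what came after it. At SS, 33 genes (0.385%) differed between the strains, 10 higher (0.117%) and 23 lower (0.269%) in Δclr1, with 868 at an unadjusted p under 0.05 and 64 called by DESeq2. This count was unstable: it was 4 without Δclr1 SS R1, 63 without Δclr1 SS R2, 9 without Δclr4 SS R1 and 82 without Δclr4 SS R2. In all, 21 genes were called both at SS and at t2. MYCTH_2095369 was 1 of these, with 68.5 and 71.2 CPM in Δclr1, against 12.1 and 16.2 CPM in Δclr4 at t2 (2.31, and 1.01 at SS). The test of the response itself, the change from SS in Δclr1 minus the change from SS in Δclr4, called 1713 genes (20.0%), 774 (9.04%) higher and 939 (11.0%) lower. Of these, 1636 were also called at t2 with the same sign. The response difference contains the t2 difference from the same libraries, so this overlap is not independent evidence.

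Each strain was also set against its own SS. There, Δclr1 had 2135 genes (24.9%) higher and 2532 (29.6%) lower, and Δclr4 had 2013 genes (23.5%) higher and 2212 (25.8%) lower. Of 46 cellulase genes, 9 rose and 8 fell in Δclr1 (median 0.15) and 34 rose and 1 fell in Δclr4 (median 6.52), and the difference of the responses was called lower in Δclr1 in 28 and higher in 2. The parental strain had 32 up and 1 down (median 6.14, with 42.2% of all genes called, 20.1% up and 22.1% down), and Δclr2 had 15 up and 3 down (median 0.99, with 54.5% of all genes called). The parental and Δclr2 libraries came from another sequencing centre, after purification and DNase treatment, and mostly held fewer counts. Their numbers of calls are therefore not like for like with those of Δclr1 and Δclr4. Hemicellulase genes rose in 21 and fell in 9 of 62 cases in Δclr1 (median 0.35), and rose in 36 and fell in 6 in Δclr4 (median 1.19). Pectinase genes rose in 1 and fell in 1 of 11 cases in Δclr1 (median -0.06), and rose in 9 and fell in 0 in Δclr4 (median 4.09).

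For the genes at least 16-fold apart, which were picked by the t2 values, the responses are given as a description. Of the 132 lower in Δclr1, 17 rose and 37 fell in Δclr1 after cellulose (median -0.30), 118 rose and 0 fell in Δclr4 (median 5.72), 108 rose in the parental strain (median 5.31) and 46 in Δclr2 (median 1.25). Of the 25 higher in Δclr1, all 25 rose in Δclr1 (median 3.60), 5 rose and 9 fell in Δclr4 (median -0.73), and the median was 0.38 in the parental strain and 2.31 in Δclr2. The Δclr1 and Δclr4 responses use the t2 libraries of the strain comparison, and the parental and Δclr2 responses use none of them. The parental and Δclr2 libraries also differ in sequencing centre, RNA handling and depth, so their counts of risen genes are not like for like.

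A smaller set of genes moved in opposite directions. In 66 genes the level rose in Δclr1 and fell in Δclr4 after cellulose, and in 168 it fell in Δclr1 and rose in Δclr4, each with a called difference between the responses. The GH5 endoglucanase gene MYCTH_86753 belonged to the second set, with 19.7 ± 2.32 CPM at t2 and 30.9 ± 7.09 CPM at SS in Δclr1, against 11460 ± 1956 CPM at t2 and 44.9 ± 6.32 CPM at SS in Δclr4 (SD, n = 2 each). MYCTH_84377 belonged to the first set, with 373 ± 47.4 CPM at t2 and 56.0 ± 1.90 CPM at SS in Δclr1, against 6.83 ± 1.16 CPM at t2 and 38.4 ± 9.93 CPM at SS in Δclr4 (SD, n = 2 each). Genes that responded in the same direction could still differ. In both strains 1104 genes rose, of which 316 were higher and 156 lower in Δclr1 at t2. Another 1716 genes fell in both, of which 128 were higher and 263 lower. Over all genes tested, 17.0% were higher and 18.4% lower in Δclr1 at t2.

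The other times place t2 in the course of the experiment. The same contrast called 3758 genes (43.9%, 20.9% higher and 23.0% lower) at t1, 3538 (41.3%, 21.4% higher and 19.9% lower) at t3 and 4656 (54.4%) at t4. Between t1 and t2 the strain difference moved in 1019 genes (11.9%, 4.50% higher and 7.40% lower), which became 595 without Δclr1 t1 R2 and also 595 without Δclr4 t2 R2. Called in the same direction as at t2 at all of t1, t3 and t4 were 635 higher and 657 lower genes, and called only at t2 were 109 higher and 172 lower genes. The median log2 fold change of the cellulase genes at these times was -5.17 (t1), -6.70 (t2), -6.21 (t3) and -5.76 (t4). The difference at t4 minus that at t2 was called in 2090 genes (24.4%, with 12.2% in each direction), among them 15 cellulase genes with a higher and 0 with a lower value at t4 (median over all cellulase genes 1.12). Of these 15, 14 were called lower in Δclr1 at t2 and lay closer to 0 at t4, and MYCTH_43356 had a log2 fold change of -0.12 at t2 and of 0.80 at t4.

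The log2 fold change of *clr2* was -6.22, -7.39, -6.10 and -4.58 in the order t1 to t4, and its t4 difference was smaller than its t2 difference (adjusted p = 6.2e-05). The cellobiohydrolase gene MYCTH_2303045 had -10.13, -10.65, -10.02 and -9.82 at the 4 times, and its difference did not pass the test between t4 and t2 (adjusted p = 0.20). The mannanase gene MYCTH_84297 had -10.16, -9.53, -7.64 and -4.48, a smaller gap at t4 than at t2 (adjusted p = 2.7e-08). Among regulators GaaR/Pdr2 (MYCTH_46266) had -1.26, -2.10, -0.67 and -0.69, and GaaX (MYCTH_46981) was lower in Δclr1 at t2 (-1.39) and higher at t4 (0.63). Of the genes higher in Δclr1, MYCTH_116881 was called at all 4 times, at 3.87, 4.89, 3.73 and 4.40, whereas MYCTH_80274 had 5.02, 4.75, 2.26 and 0.42, the last of which did not pass the test (adjusted p = 0.28).

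**Figure D5:**
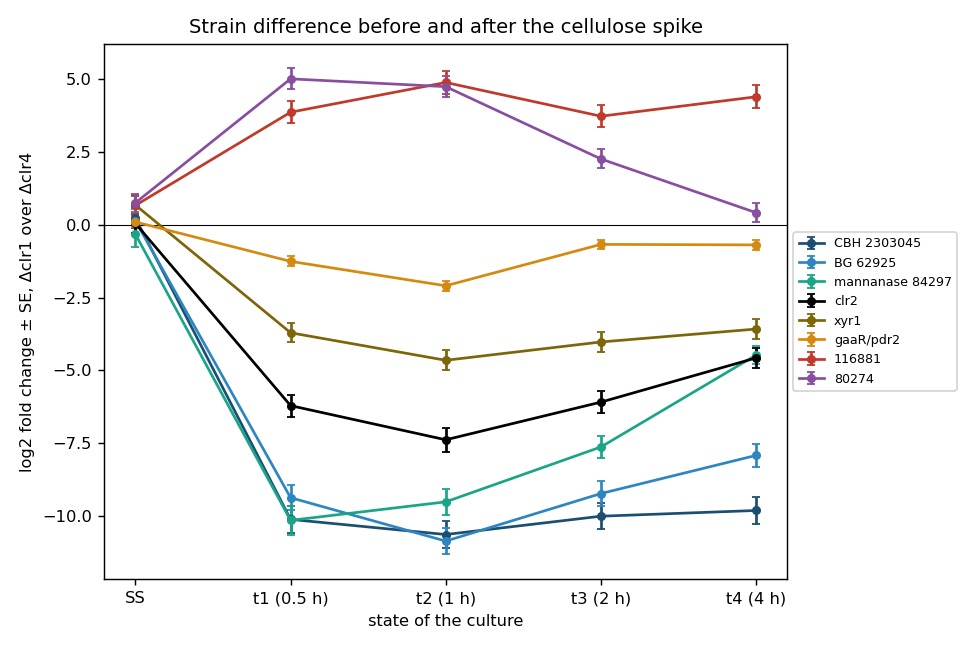
Log2 fold change of Δclr1 over Δclr4 with SE (y axis) for 8 genes at SS and the 4 times after cellulose was given (x axis, 0.5 to 4 h). At SS the difference between strains is called in none of the 8 genes, where 0.385% of all genes are called. By 4 h MYCTH_80274 (0.42) is back near 0 while MYCTH_2303045 (-9.82) is not.

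Among the 5 genes with the highest mean CPM in Δclr1, the levels overlapped between strains in some and not in others. MYCTH_2071514 had 12668 and 17069 CPM in Δclr1, against 10049 and 13776 CPM in Δclr4, with overlap (0.32, not called). MYCTH_2071504 was far apart between the replicates of both strains, with 4458 and 11778 CPM in Δclr1, against 4184 and 14243 CPM in Δclr4. MYCTH_115501, listed for transferase activity, was higher without overlap, with 5669 and 6891 CPM in Δclr1, against 1042 and 1535 CPM in Δclr4 (2.29), and its difference was no longer called at t4 (0.32, adjusted p = 0.55).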

How the data were processed

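Poly(A) RNA was sequenced as 150 bp paired-end reads from 48 libraries, 2 bioreactor cultures for each of 4 strains in 6 states. Per the study's methods, the authors ran FastQC on the reads, used BBTools for any trimming, and aligned to the ASM22609v1 genome with STAR. The deposited table holds raw read counts per gene. The counting program, its use of strand and the tool versions are not given in the sources used here, so overlapping genes cannot be told apart by strand. RNA of the Δclr1 and Δclr4 strains was neither purified nor treated with DNase before sequencing, which was done at GenomeScan for both. The authors' sheets of normalized counts and of DESeq2 fold changes and p-values were not used. Columns were matched to samples by strain, time and replicate. The Δclr4 t4 R2 column, for which GEO has 2 entries, was taken by its group, as 1 replicate.

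The software was edgeR 4.0.16 and limma 3.58.1, run in R 4.3.3. Its filterByExpr step, set to a minimum of 10 counts, kept 8565 of 9292 genes and removed 727. Counts were scaled by TMM. A quasi-likelihood model with 1 coefficient per group was fitted to all 48 libraries, which share the estimate of spread (residual degrees of freedom 24, prior 8.13, biological coefficient of variation 0.151), without a replicate block. Adjusted p-values are Benjamini-Hochberg values over the tested genes, all tests are two-sided and genes under 0.05 were called. With 2 cultures per group, p-values set a difference against the spread between replicate cultures, estimated over all groups and strains together. Each strain is 1 isolate, so a spread between isolates of the same deletion is not covered. The contrasts were Δclr1 against Δclr4 at t2, at SS, t1, t3 and t4, each strain at t2 against its own SS, and differences of these. A gene at 0 counts in both libraries of a strain was given a bound at 3 counts over the group, and low counts a 95% exact counting interval. Within a strain the culture number marks the same bioreactor, and deviations from the group means correlated between t2 and SS (0.258 in Δclr1, 0.236 in Δclr4).

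The lists are the CAZY classes, predicted transcription factors, regulator orthologs and GO terms of the study, the last chosen by it on these samples. The members and lists were chosen with earlier results of these data known. Of the table's rows, 9286 matched the RefSeq annotation by locus tag and 6 by symbol, for coordinates of the gene span. Lists by product name could not be made because the annotation used here gives no product names. Named genes are the deleted genes and their neighbours, the 10 highest and 10 lowest called genes at t2 whose mean count reached 50 and whose CPM did not overlap, the 5 highest and 5 lowest at SS and for t4 minus t2 under the same conditions, up to 4 called members of each list with at most 2 in each direction, the called regulators, the 5 genes of highest mean CPM per strain and loci named in the study's results. The alternatives were DESeq2 (1.42.0) as test and as scaling, library totals, no filter, fewer libraries in the fit, a log2 limit of 1, a replicate block by number or by culture, and leaving out each library. A block by culture within each strain was added after seeing the data. The fit was tested on simulated data first. Intervals were computed with scipy 1.17.1 and plots made in matplotlib 3.10.9, both under Python 3.11.15.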

Additional observations from a re-analysis of the deposited data

Results flagged for a closer look

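A difference of the strain difference between times was called in 2090 genes for t4 minus t2 and in 1019 genes (11.9%, 4.50% higher and 7.40% lower) for t2 minus t1. The second count was 595 without Δclr1 t1 R2 and also 595 without Δclr4 t2 R2. The response to cellulose differed between Δclr1 and Δclr4 in 1713 genes, and in 234 of these the responses were called in opposite directions.

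Among genes with opposite responses, those with the largest difference of responses that fell in Δclr1 and rose in Δclr4 were the unannotated MYCTH_2313034 (-11.94) and MYCTH_2305771 (-9.95) and the endoglucanase genes MYCTH_76901 (-8.71) and MYCTH_86753 (-8.64). MYCTH_2313034 had 0 ± 0 CPM at t2 and 0.306 ± 0.310 CPM at SS in Δclr1, against 72.4 ± 2.83 CPM at t2 and 0.418 ± 0.0804 CPM at SS in Δclr4 (SD, n = 2 each), so that its fall in Δclr1 rests on a few counts at SS, and its fitted difference depends on the prior count of the fit. MYCTH_2305771 had 0.143 ± 0.203 CPM at t2 and 1.75 ± 0.738 CPM at SS in Δclr1, against 122 ± 32.3 CPM at t2 and 1.49 ± 0.0699 CPM at SS in Δclr4. MYCTH_76901 had 11.1 ± 5.76 CPM at t2 and 26.1 ± 2.66 CPM at SS in Δclr1, against 3694 ± 145 CPM at t2 and 21.4 ± 7.52 CPM at SS in Δclr4.

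Those that rose in Δclr1 and fell in Δclr4 were MYCTH_84377 (5.26), MYCTH_2082794 (5.20), MYCTH_2302321 (5.04) and the acetyl esterase gene MYCTH_105128 (4.80). MYCTH_2302321 had 262 ± 23.6 CPM at t2 and 79.9 ± 3.05 CPM at SS in Δclr1, against 9.67 ± 6.25 CPM at t2 and 92.1 ± 3.98 CPM at SS in Δclr4 (SD, n = 2 each). MYCTH_2082794 had 36.9 ± 20.4 CPM at t2 and 2.96 ± 1.13 CPM at SS in Δclr1, against 1.72 ± 0.410 CPM at t2 and 5.06 ± 2.37 CPM at SS in Δclr4. MYCTH_105128 had 62.7 ± 30.8 CPM at t2 and 10.1 ± 7.39 CPM at SS in Δclr1, against 7.06 ± 1.40 CPM at t2 and 32.4 ± 15.8 CPM at SS in Δclr4, with replicates of a group up to several times apart.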

How the results depend on the processing

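The 3027 genes called at t2 became 1776 with the 4 compared libraries alone in the fit and 1489 with a log2 limit of 1, and 2166 to 2670 when a library was left out. DESeq2 called 3103 and library totals 4101. The 33 genes called at SS became 14 with the 24 libraries of both strains, 64 with DESeq2, 2 with the compared libraries alone, 18 without the exponential libraries, and 4 to 82 when a library was left out. The 1713 response differences became 2635 with library totals (2073 higher and 562 lower, against 774 higher and 939 lower with TMM), 1071 with the compared libraries alone, and 1282 to 1706 when a library was left out. The 1019 differences of t2 minus t1 became 1752 with library totals and 595 to 1060 when a library was left out. The cause of these moves was not tested. Leaving out a library assumes that the lone one varies like the other groups. The counts of the other contrasts stayed within 1.5 times. With library totals 27.02% of the calls of the Δclr4 response were higher, against 47.64% with TMM, and 76.53% at t3 and 75.01% at t4 were higher in Δclr1, against 51.92% and 49.25%.

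Between strains the replicates share only a number (correlation of deviations 0.0896). With a replicate block by number, 3119 genes were called at t2, 45 at SS and 1817 for the response difference, and with a block by culture 3176, 47 and 2216. A block by culture within strain, chosen after seeing the data, gave 2106 response differences, 4957 calls for the Δclr1 response, 4579 for the Δclr4 response and 2535 for t4 minus t2. No block moved these counts by over 1.5 times. Of 288 named genes, 154 kept their direction and side of the threshold under all alternatives. The log2 limit of 1 takes the call from every gene with a smaller change by definition, and 110 named genes lost their call under it. The sign changed under at least 1 alternative in 7 genes that were not called at t2 and in 2 that were, MYCTH_2309752 (-0.0081 without Δclr1 t2 R1, within a range up to 0.9597 over the libraries left out) and MYCTH_71748 (0.0114 with library totals). Depth limits the size of the fold change for genes with 0 to 3 counts in a strain.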

Other observations

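Some genes that differed in the same direction stood side by side. Runs of at least 3 neighbouring annotated genes, all called and at least 4-fold apart between Δclr1 and Δclr4 at t2, numbered 6 higher and 10 lower in Δclr1. How many such runs a random order of genes would give was not tested. The longest higher run, on chromosome 5 from 2413603 to 2422899, held 5 genes with log2 fold changes from 2.37 to 4.89. It contained MYCTH_116881, listed for transmembrane transport, with the ß-glucosidase gene MYCTH_2129052 and the LPMO gene MYCTH_55803, which are 2 of the 4 cellulase genes higher in Δclr1. A run of 4 higher genes on chromosome 1 from 2522541 to 2530655 (2.57 to 4.41) held MYCTH_2295409, with 546 and 490 CPM in Δclr1, against 42.8 and 52.9 CPM in Δclr4, and the heme-binding gene MYCTH_2114617.

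The longest lower run, on chromosome 5 from 472133 to 485713, held 5 genes. The transporter gene MYCTH_84164 (-7.53) and MYCTH_2139925 (-4.06) had counts in Δclr1, and the other 3 had 0 counts in both Δclr1 libraries, among them MYCTH_88807 with 0 CPM in Δclr1, against 24.3 and 36.5 CPM in Δclr4 (at least 156-fold lower by the floor of 3 counts). Xyr1 (MYCTH_2310145) stood in a lower run on chromosome 6 from 1227369 to 1236497 (-4.66 to -2.40). Others held the ß-glucosidase gene MYCTH_58882 on chromosome 6, the cellobiohydrolase genes MYCTH_97137 on chromosome 7 and MYCTH_66729 on chromosome 2, and the cellobiose dehydrogenase gene MYCTH_81925 on chromosome 4. The chromosome 4 run has 3 members, among them MYCTH_t123, by its locus tag a tRNA gene, although the libraries were of poly(A) RNA. Whether its counts come from a neighbouring gene was not tested, and without it the run falls short of 3 genes. Outside the lists, MYCTH_2051636 had 0 and 0.105 CPM in Δclr1, against 518 and 516 CPM in Δclr4, an 8540-fold lower level (95% interval 1530 to 337000).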
